A study of Mus musculus with 6 samples.

Results

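The 9 genes described here are markers of undifferentiated mouse embryonic stem cells (mESCs), namely the developmental pluripotency associated genes Dppa2, Dppa3, Dppa4 and Dppa5a together with Utf1, Fbxo15, L1td1, Tdh and Tcl1. They were matched by symbol in a gene-level table of 41945 rows, of which 37261 carry a gene symbol. Each of the 9 symbols was found in 1 row, and no row names a second gene. The table compares motor neurons (MNs) differentiated from the mESC lines Hb9 (control) and A2 (spinal muscular atrophy, SMA), with RNA from 3 samples per genotype sequenced. It gives 1 pooled FPKM value (fragments per kilobase of exon, scaled to the number of mapped fragments) per genotype and no value per sample, so that no SD and no test could be computed for any difference given below.

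Both lines come from FVB/N mice and carry the human SMN2 transgene (SMN2+/+) and eGFP under the Hb9 promoter as a reporter. The control cells have normal mouse Smn (mSmn+/+, wildtype in the labels) and the A2 SMA cells lack it (mSmn-/-). mESCs were kept on mouse embryonic fibroblasts with LIF, formed embryoid bodies, and then received 1 µM retinoic acid with 1 µM Smoothened agonist over 5 days before eGFP-positive, propidium iodide-negative cells were sorted by FACS. Each genotype is represented by 1 mESC line, and genotype and line therefore cannot be told apart.

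mESCs keep themselves undifferentiated through a network of transcription factors centred on Pou5f1 (Oct4), Sox2 and Nanog, and the 9 genes are known as genes that this state expresses and that are silenced as cells leave it. They do different things. Dppa2 and Dppa4 are nuclear proteins with SAP domains that work as a pair at CpG-rich promoters, Dppa3 (Stella) protects DNA methylation in the early embryo, and Dppa5a is an RNA-binding protein with a KH domain. Utf1 is a chromatin-bound transcription cofactor, Fbxo15 is the substrate-binding subunit of an SCF ubiquitin ligase, L1td1 is an RNA-binding protein derived from a LINE-1 element, Tdh is the mitochondrial threonine dehydrogenase, and Tcl1 is a coactivator of AKT kinases.

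All 9 genes were at least 2-fold higher in A2 SMA than in Hb9 control MNs, where 6.83% of the 14926 background rows were. This background holds every row that has a symbol, a value above 0 in each genotype and a higher value of 1 FPKM or more. The folds ran from 2.24 for Dppa5a to 11.3 for Tdh, with a median of 5.41. At least 4-fold higher levels were seen for 6 of the 9 genes, namely Dppa2, Utf1, Fbxo15, L1td1, Tdh and Tcl1, against 1.8% of the background rows. On the log2 scale the median ratio of the 9 genes was 2.44, while that of the background rows was -0.29. Since the whole table is shifted to lower values in the A2 line, the ratios were also taken relative to the median row, where the 9 genes lay between 1.45 and 3.78. With that centring 10.4% of the background rows were at least 2-fold higher, and the split of background rows past 2-fold moved from 1020 higher and 3343 lower to 1558 higher and 2461 lower. A second centring, on the reference genes Gusb, Pgk1 and Rpl13a, gave 1238 higher and 2873 lower.

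None of the 9 genes was at 0 in the Hb9 control MNs. Control levels ran from 1.90 to 66.7 FPKM, and 5 of the 9 genes reached 5 FPKM there, whereas all 9 did in A2 SMA MNs with levels from 9.92 to 357 FPKM. The sum over the 9 genes was 186 FPKM in Hb9 control and 945 FPKM in A2 SMA MNs, a ratio of 5.07. In bulk RNA a larger share of cells that express a gene and more RNA of it per cell cannot be told apart.

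**Figure D1:**
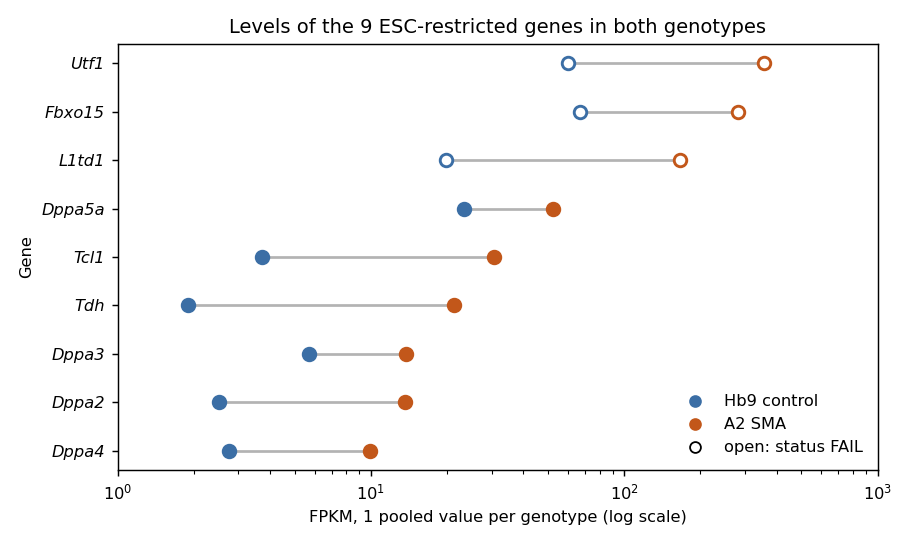
Pooled FPKM (log axis) of the 9 genes in both genotypes (control in blue, SMA in orange), 1 value per genotype with no error bar because the table gives none. Every orange point lies to the right of its blue point, and open circles mark Utf1, Fbxo15 and L1td1, whose rows have the status FAIL.

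Markers of MNs and of neurons in general were lower in A2 SMA MNs, and both gene checks of the labels are given first. Smn1, the deleted gene, was at 137 FPKM in Hb9 control and 5.26 FPKM in A2 SMA MNs (chr13:100894807-100907645, NCBI m37). Mnx1 (Hb9), the gene whose promoter drives the sorting reporter, was at 41.2 and 44.2 FPKM. Of 6 measured MN markers, 5 were at least 2-fold lower in A2 SMA MNs, among them Isl1 (108 against 5.95 FPKM), Lhx3 (27.6 against 0.348 FPKM) and Chat (15.5 against 0.344 FPKM), and the summed level of the 7 MN markers in the table was 216 against 52.5 FPKM. The other lower MN markers were Lhx4 and Isl2. All 10 general neuronal markers in the table (Nefm, Nefl, Stmn2, Gap43, Elavl4, Elavl3, Dcx, Snap25, Rbfox3 and Syt1) were at least 2-fold lower, with a sum of 1499 against 145 FPKM, where 22.4% of the background rows were lower by this limit. Lhx3, Lhx4, Chat, Rbfox3 and Syt1 passed the filter through their Hb9 control level alone. What part the share of neurons has in the values of the 9 genes was not tested.

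Promoter sequence was available for 3 of the 9 genes from RefSeq on GRCm38.p6, a later build than the one in the deposited table. All available stretches are shown, whatever the ratio of the gene. The 3 genes were among the 4 with the highest ratios in this set. CpGs are marked because Dppa2 and Dppa4 are known to bind CpG-rich promoters. The stretches start 250 bases before the RefSeq start, stop at the base before the gene begins in GENCODE M21, run 5′ to 3′ on the strand of the gene, and have every CpG dinucleotide in capitals.
Utf1 (chr7:139943606-139943788, plus strand): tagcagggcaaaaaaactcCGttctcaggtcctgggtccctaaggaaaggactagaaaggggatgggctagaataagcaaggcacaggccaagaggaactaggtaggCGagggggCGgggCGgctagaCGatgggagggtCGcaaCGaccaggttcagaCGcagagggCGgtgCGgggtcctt
L1td1 (chr4:98726504-98726733, plus strand): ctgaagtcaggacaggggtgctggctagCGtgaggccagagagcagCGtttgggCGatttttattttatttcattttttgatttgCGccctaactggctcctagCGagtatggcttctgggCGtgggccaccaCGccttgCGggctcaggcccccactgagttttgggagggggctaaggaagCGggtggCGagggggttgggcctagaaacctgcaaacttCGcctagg
Tcl1 (chr12:105222794-105222987, minus strand): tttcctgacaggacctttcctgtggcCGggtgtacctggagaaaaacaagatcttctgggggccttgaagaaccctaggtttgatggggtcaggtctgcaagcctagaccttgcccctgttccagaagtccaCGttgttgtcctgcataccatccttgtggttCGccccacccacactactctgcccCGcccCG

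In the whole window of 300 bases, 250 before and 50 after the RefSeq start, Utf1 has 17 CpGs, L1td1 has 14 and Tcl1 has 11. The median over all 32851 such windows is 7 CpGs, so the 3 windows lie above it, at percentiles of 68.6, 63.7 and 58.6. Their GC content is 62.0%, 58.7% and 56.7%, against a median of 52.7%. The windows of the 3 genes hold none of 6 short motifs searched on both strands. These were the octamer ATGCAAAT (found in 1.74% of all windows), the SOX motif CATTGTT (3.78%), the KLF motif CCACACCC (3.56%), the ESRRB motif AAGGTCA (4.72%), the E2F6 motif TCCCGC (19.98%) and the E-box CACGTG (7.15%). The absence of these letters from so short a window says nothing on whether the factors act on the genes.

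Dppa2 and Dppa4 are neighbours on chromosome 16, at chr16:48303934-48320911 and chr16:48283820-48294682 of NCBI m37, with a gap of 9.3 kb. Dppa2 was at 2.52 FPKM in Hb9 control and 13.6 FPKM in A2 SMA MNs, 5.41-fold higher (log2 ratio 2.44). Dppa4 was at 2.76 and 9.92 FPKM, 3.60-fold higher (log2 ratio 1.85). The members of the pair were close in level in both genotypes, and both stood below most other genes of the set, since Dppa4 had the lowest level of the 9 in A2 SMA MNs.

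Dppa2 and Dppa4 are known to act upstream of genes of the 2-cell embryo, such as the Zscan4 cluster. Of 12 such genes listed, 10 were in the table and 4 passed the filter of 1 FPKM, of which 1 was at least 2-fold higher. This was Zscan4d, at 0.451 FPKM in Hb9 control and 1.997 FPKM in A2 SMA MNs, so that it passed the filter through its A2 SMA level alone. Tmem92 was the most abundant of these genes and was within 2-fold, at 7.46 and 12.3 FPKM (status FAIL), as were Dub1 (1.62 and 2.71 FPKM) and Zfp352 (1.01 and 1.68 FPKM). The median log2 ratio of the 4 was 0.74, below that of either Dppa gene. With ratios taken relative to the median row all 4 genes were past 2-fold, so that their count depends on the scaling. The background share of higher rows was 6.83% as deposited and 10.4% relative to the median row.

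Dppa3 lies at chr6:122555421-122583593, an interval that the table shares with Gdf3. Its levels were 5.71 FPKM in Hb9 control and 13.7 FPKM in A2 SMA MNs, 2.40-fold higher (log2 ratio 1.27). Dppa3 and Dppa5a had the 2 smallest ratios of the set. Dppa5a, at chr9:78214859-78215984, was at 23.3 and 52.2 FPKM, 2.24-fold higher (log2 ratio 1.16). In Hb9 control MNs Dppa5a was the third most abundant of the 9 genes, behind Fbxo15 and Utf1. Taken as a group, the 4 Dppa genes summed to 34.3 FPKM in Hb9 control and 89.4 FPKM in A2 SMA MNs, and their share of the sum over the 9 genes was 18.4% in the former and 9.46% in the latter.

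Of 13 relatives of these genes, listed as Dppa1 and the families of Dppa5a and Tcl1, 10 stayed below 1 FPKM in both genotypes. Ooep, a KH-domain protein of the oocyte, was at 7.67 FPKM in Hb9 control and 34.2 FPKM in A2 SMA MNs (log2 ratio 2.16). Khdc3, a further oocyte KH-domain gene, was at 15.8 and 53.3 FPKM (log2 ratio 1.76), but its row also names Gm20509 and Rsl24d1. Mtcp1, a relative of Tcl1, went the other way with 21.4 and 9.13 FPKM (log2 ratio -1.23), which relative to the median row is within 2-fold. Tcl1b2, 61.5 kb from Tcl1 and the highest of the Tcl1b genes, was listed at 0 in Hb9 control and at 0.354 FPKM in A2 SMA MNs, and Tcl1b3, Tcl1b4 and Tcl1b5 were listed at 0 in both. The family of Tcl1 was thus represented by Tcl1 and Mtcp1.

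Utf1, Fbxo15 and L1td1 were the 3 most abundant of the genes in A2 SMA MNs. Utf1 (chr7:147129688-147131011) was at 59.8 FPKM in Hb9 control and 357 FPKM in A2 SMA MNs, 5.97-fold higher (log2 ratio 2.58). Its A2 level was above that of 99.3% of the background rows, whereas its control level was above 82.0% of them. Fbxo15 (chr18:85103873-85150930) was at 66.7 and 280 FPKM, 4.198-fold higher (log2 ratio 2.07). L1td1 (chr4:98393425-98405171) was at 19.8 and 166 FPKM, 8.38-fold higher (log2 ratio 3.07).

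These 3 genes made up 78.6% of the sum over the 9 genes in Hb9 control MNs and 85.03% in A2 SMA MNs. All 3 rows carry the status FAIL, which Cuffdiff gives where its calculation met a numerical exception, as do 14.0% of the background rows. The FPKM values are still listed, and the other 6 genes have the status OK. Without the 3 genes the remaining 6 were all at least 2-fold higher, with a median log2 ratio of 2.14.

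Tdh (chr14:64111184-64127929) had the lowest level of the 9 genes in Hb9 control MNs, 1.90 FPKM, and rank 6 in A2 SMA MNs, 21.3 FPKM. It was 11.3-fold higher (log2 ratio 3.49), above 99.8% of the background rows. With a pseudocount of 1 FPKM its log2 ratio was 2.95, below the 3.01 of L1td1, so its place as the highest ratio rests on the low control level. Tcl1 (chr12:106454960-106461003) was at 3.73 and 30.7 FPKM, 8.25-fold higher (log2 ratio 3.04). The 5 genes other than the Dppa genes had log2 ratios from 2.07 to 3.49, and the 4 Dppa genes from 1.16 to 2.44. These ranges overlap, and with 1 value per genotype the order of the genes within them has no error attached.

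**Figure D2:**
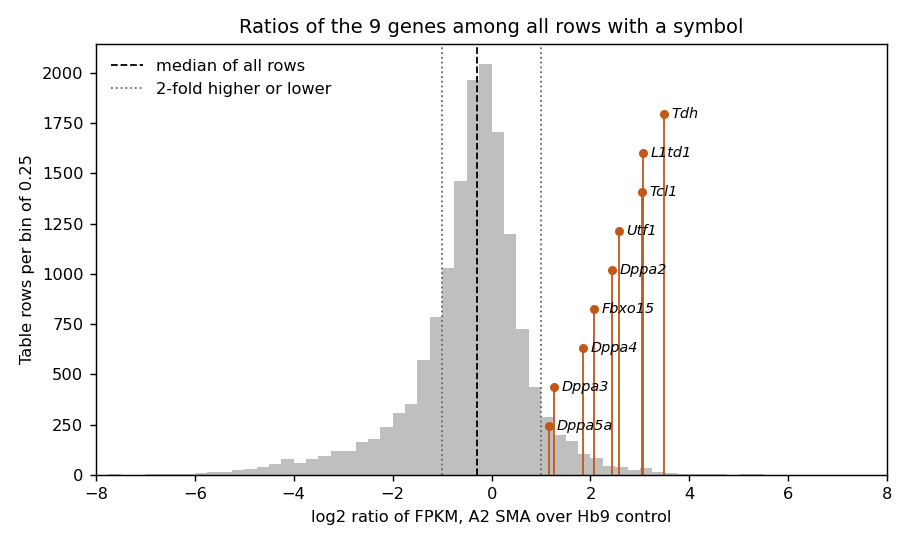
Histogram of log2 ratios (A2 SMA over Hb9 control FPKM, bins of 0.25) over 14926 background rows, with the 9 genes as orange markers set at arbitrary heights. All 9 lie beyond the dotted line for 2-fold higher, from Dppa5a at 1.16 to Tdh at 3.49, while the dashed median of all rows is at -0.29.

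Partner genes were listed for Fbxo15, Tdh, Tcl1 and L1td1. Of these 12 genes, all measured, none was at least 2-fold higher in A2 SMA MNs, 1 was at least 2-fold lower and 11 were within 2-fold, with a median log2 ratio of 0.21. Among the background rows 6.83% were higher and 22.4% lower by this limit, so the absence of a higher gene among 12 is near the background. The core subunits of the SCF ligase into which Fbxo15 fits were within 2-fold, with Skp1a at 338 FPKM in Hb9 control and 406 FPKM in A2 SMA MNs and Cul1 at 205 and 192 FPKM. For Tdh, the 6 genes of the route from threonine through glycine to one-carbon units (Gcat, Gldc, Amt, Gcsh, Dld and Shmt2) were within 2-fold too, and the most abundant of them, Shmt2, was at 89.3 and 147 FPKM. Relative to the median row Shmt2 was just past 2-fold higher. The kinase gene Akt1, whose product Tcl1 binds, was lower in A2 SMA MNs, at 256 FPKM in Hb9 control and 104 FPKM in A2 SMA (log2 ratio -1.30).

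Other genes of the undifferentiated state stood beside the 9. Of 33 such genes, all measured, 29 were at least 2-fold higher in A2 SMA MNs and none was 2-fold lower, with a median log2 ratio of 2.16. Among the background rows 6.83% were higher and 22.4% lower by this limit. Pou5f1 was at 98.3 FPKM in Hb9 control and 775 FPKM in A2 SMA MNs (log2 ratio 2.98). Dnmt3l, a cofactor of DNA methylation, was at 133 and 321 FPKM (log2 ratio 1.27, status FAIL), and Phc1, a Polycomb subunit, at 90.1 and 302 FPKM (log2 ratio 1.74). The 4 genes within 2-fold, named after their values were seen, were the glucose transporter gene Slc2a3 (996 and 1949 FPKM, log2 ratio 0.97, status FAIL), Tbx3 (log2 ratio 0.90), Sox2 (179 and 197 FPKM, log2 ratio 0.14) and Jam2 (log2 ratio -0.29). Sox2 is also a gene of neural progenitors. All 9 genes of the set had ratios above these 4, which follows from the 2-fold limit that the 9 passed and the 4 did not. With either centring 31 of the 33 genes were at least 2-fold higher, and Sox2 and Jam2 stayed within 2-fold. The background share of higher rows was then 10.4% on the median row and 8.29% on the reference genes.

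Set against Pou5f1 in the same genotype, the 9 genes did not keep a common proportion. L1td1 was at 20.2% of the Pou5f1 level in Hb9 control and 21.5% in A2 SMA MNs, and Tcl1 at 3.79% and 3.97%, so both were nearly constant relative to Pou5f1. Tdh was higher against Pou5f1 in A2 SMA MNs, at 1.93% and 2.75%, but this rests on its low level of 1.90 FPKM in Hb9 control MNs. With a pseudocount of 1 FPKM the log2 ratio of Tdh fell from 3.49 to 2.95, below the 2.98 of Pou5f1 without a pseudocount. The other 6 genes were lower relative to Pou5f1. Fbxo15 was at 67.9% and 36.1%, and Dppa5a at 23.7% and 6.73%. Of the 33 other genes, 31 had a smaller ratio than Tdh and 4 had a smaller ratio than Dppa5a.

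Genes of later epiblast did not move as one group. Of 10 such genes 7 passed the filter, of which 3 were at least 2-fold higher and 1 was at least 2-fold lower. Among the background rows 6.83% were higher and 22.4% lower by this limit, so the 1 lower gene is near the background. Dnmt3b, a DNA methyltransferase, was at 20.2 FPKM in Hb9 control and 48.6 FPKM in A2 SMA MNs, Lef1, a factor of Wnt signalling, at 2.66 and 24.6 FPKM, and Fgf5 at 0.449 and 1.69 FPKM. Dnmt3b and Lef1 have the status FAIL. Fgf5 passed the filter through its A2 SMA level alone, and with a pseudocount of 1 FPKM 2 of the genes were past 2-fold higher. Sox3 was lower, at 57.5 and 5.01 FPKM, and it is known in neural progenitors as well. The median log2 ratio of the 7 genes was 0.68, below that of every one of the 9 genes.

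**Figure D3:**
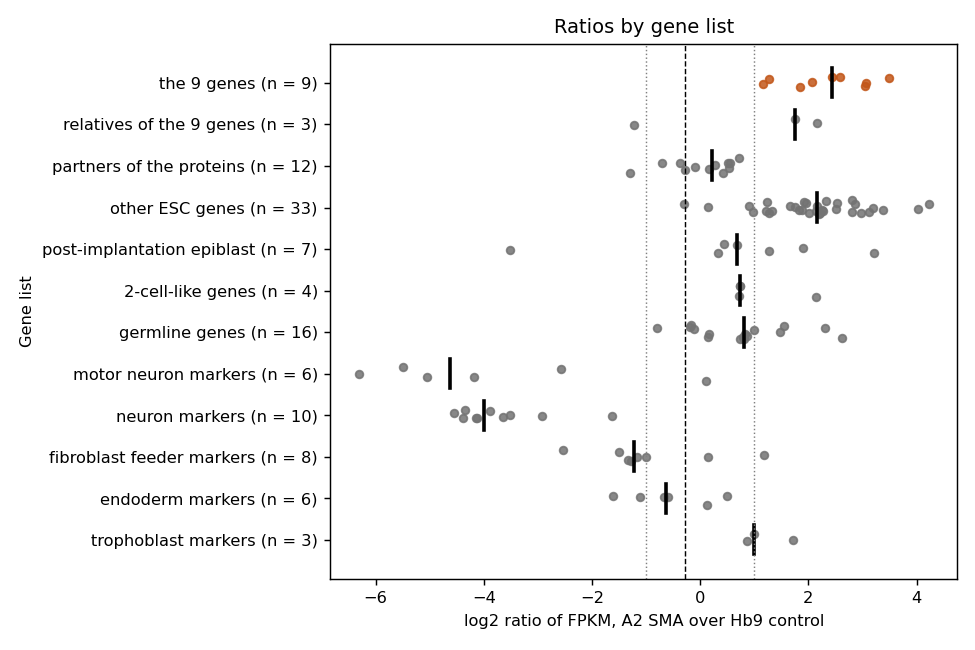
Log2 ratio (A2 SMA over Hb9 control FPKM) of each gene that passed the filter, by list, with a black bar at the median of each list, a dashed line at the median background row and dotted lines at 2-fold. The 9 genes and the 33 other ESC genes have medians of 2.44 and 2.16, the partner genes 0.21, and the MN and neuronal markers -4.62 and -4.004.

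mESCs in culture sit on fibroblasts and can give rise to other embryonic lineages, so markers of these were read beside the 9 genes. Of 8 measured fibroblast markers 6 were at least 2-fold lower in A2 SMA MNs and 1, Thy1, was higher (0.970 and 2.20 FPKM), and the sum over the 11 genes in the table was 73.7 against 36.8 FPKM. Among the background rows 22.4% were lower and 6.83% higher by this limit. The 6 lower genes were Col1a1, Col1a2, Col3a1, Fbn1, Lum and Postn. Col1a2 was at 20.1 and 8.93 FPKM, and S100a4 was listed at 0 in A2 SMA MNs. Postn and Lum, both lower, passed the filter through their Hb9 control level alone. Thy1 passed it through its A2 SMA level alone, and with a pseudocount of 1 FPKM it was within 2-fold. When centred on the median row 3 of the 8 were at least 2-fold lower, as were 2461 of the 14926 background rows. Of 6 measured endoderm markers 2, Foxa2 and Sox17, were at least 2-fold lower and none was higher, a share near the 22.4% of background rows that were lower, with sums of 91.1 and 42.3 FPKM over 7 genes. The count fell to 1 with a pseudocount of 1 FPKM and with either centring, where Sox17 was within 2-fold. Foxa2, at 55.9 and 18.2 FPKM, is also a gene of the floor plate of the spinal cord. Of 3 measured trophoblast markers, Eomes was higher (1.35 and 4.44 FPKM), and Hand1 was the most abundant at 14.7 and 26.7 FPKM. All 3 were past 2-fold with either centring, but the third, Elf5, passed the filter through its A2 SMA level alone, and Hand1 has the status FAIL. The background share of higher rows was 6.83% as deposited, 10.4% centred on the median row and 8.29% centred on the reference genes. The sum of the 4 trophoblast genes was 16.8 against 32.7 FPKM, and their part in the values of the 9 genes was not tested.

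The genome around the 9 genes was read at the same limit. Within 200 kb there were 44 measured rows that are not among the 9, of which 10 were at least 2-fold higher in A2 SMA MNs (22.7%, against 6.83% of the background rows), 3 were lower (22.4% of the background rows) and 31 were within 2-fold. Of the 10, C920006O11Rik and RP23-90I17.3.1 passed the filter through their A2 SMA level alone. The median log2 ratio of these neighbours was 0.03. With either centring 14 were higher and 2 were lower, as Gm7204, Apobec1, Slc2a3 and Gsta4 passed 2-fold and Fam167a no longer did. The background share of higher rows was then 10.4% on the median row and 8.29% on the reference genes. Morc1, Gdf3 and Nanog among the 10, and Slc2a3 with centring, also belong to the 33 other ESC genes, and Ooep to the relatives. They are therefore not a separate set of genes. The 10 higher rows were not spread evenly over the 9 genes.

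Around Dppa2 and Dppa4 the next measured gene beyond Dppa2, Morc1, a germline ATPase that is also among the 33 ESC genes, was at 5.45 FPKM in Hb9 control and 19.99 FPKM in A2 SMA MNs (log2 ratio 1.88), and Gm7204, the next beyond Dppa4, was at 72.0 and 139 FPKM (log2 ratio 0.94). Around Dppa3, Gdf3, which lies in the same interval and encodes a TGF-beta family ligand, was at 9.74 and 70.4 FPKM (log2 ratio 2.85), more than the 1.27 of Dppa3 itself. Nanog, 73.9 kb from Dppa3, was at 41.4 and 236 FPKM (log2 ratio 2.51). Mfap5, a microfibril gene, and the predicted gene Gm8459 were past 2-fold with log2 ratios of 1.47 and 1.10, and the nearest gene on that side, Apobec1, was within 2-fold at 0.93. The nearest on the side of Nanog, Gm10420, was below 1 FPKM in both genotypes. Around Dppa5a, its relative Ooep at a gap of 7.9 kb and the helicase gene Ddx43 at 26.8 kb had log2 ratios of 2.16 and 1.93, and C920006O11Rik, 188.2 kb away on the other side, had 1.58. The nearest gene on that side, Gsta2, had 0 FPKM listed for Hb9 control and 0.0485 FPKM for A2 SMA.

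No neighbour of Utf1, Fbxo15 or Tdh that passed the filter was 2-fold higher. In the interval of Tdh, Gm17232 had a log2 ratio of 4.24 but missed the filter, at 0.0513 FPKM in Hb9 control and 0.971 FPKM in A2 SMA MNs. The nearest genes to Utf1, Kndc1 at 2.3 kb and Gm16201 at 5.3 kb, had log2 ratios of 0.39 and -0.30. Further out, the receptor gene Gpr123 (2.36 and 0.129 FPKM, log2 ratio -4.20) and the neuronal gene Caly (2.20 and 0.631 FPKM, log2 ratio -1.80) were lower, and both passed the filter through their Hb9 control level alone. Next to Fbxo15, Cyb5 had a log2 ratio of 0.02, and 1700034H14Rik, whose row shares the interval of Fbxo15 and has the status FAIL, had -0.92. Beside Tdh, Fam167a at 26.8 kb was lower with a log2 ratio of -1.01 and Mtmr9 at 10.4 kb had -0.41.

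L1td1 and Tcl1 each had 1 higher neighbour. Inadl, 7.1 kb from L1td1, had a log2 ratio of 0.49, and Kank4 at 16.4 kb had 1.36 (3.14 and 8.06 FPKM). Gm17376, the nearest gene on that side, was listed at 0 in Hb9 control and at 0.643 FPKM in A2 SMA MNs. In the interval of Tcl1 the row RP23-90I17.3.1 was at 0.165 and 7.23 FPKM, below and above the filter of 1 FPKM, with a log2 ratio of 5.45. Its strand is not in the table, and how the authors treated strand is not given in the sources used here, so reads of Tcl1 and of an overlapping transcript cannot be told apart. Tcl1b4, 9.8 kb away, was listed at 0 in both genotypes, and 2810011L19Rik, the nearest on the other side, was below 1 FPKM in both.

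**Figure D4:**
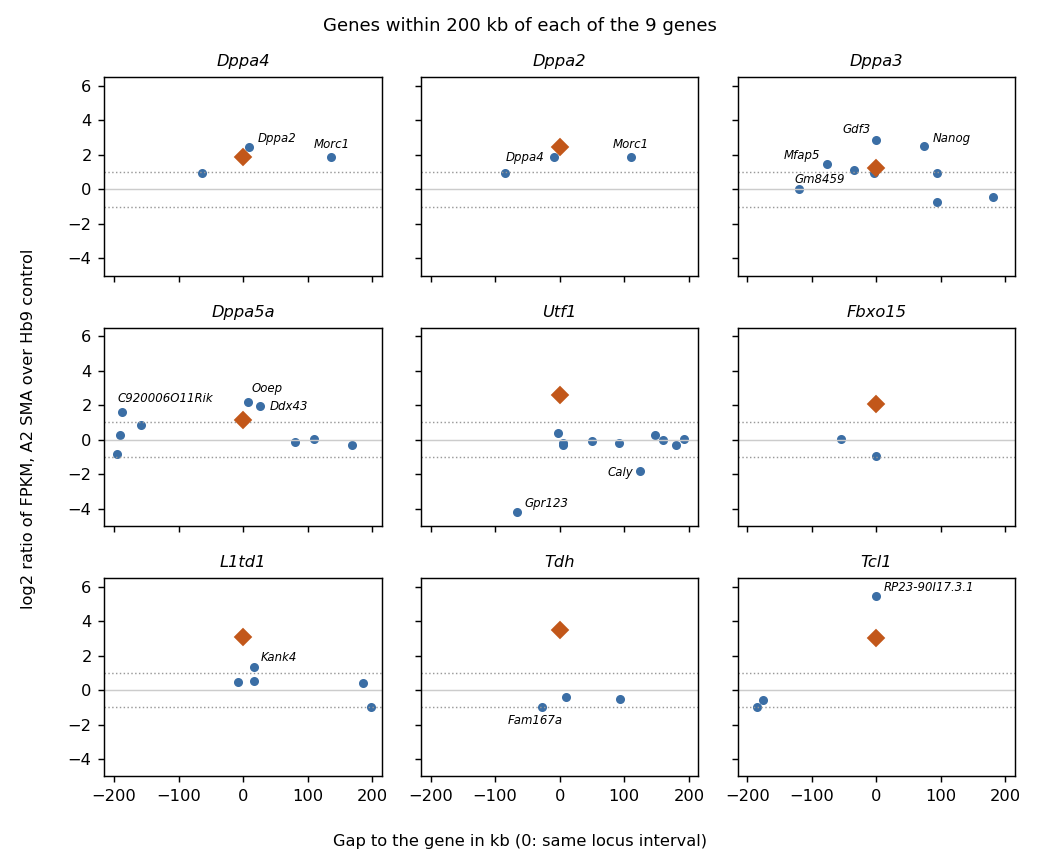
Log2 ratio (A2 SMA over Hb9 control FPKM) of measured genes within 200 kb (blue) against their gap in kb to each of the 9 genes (orange diamond at 0), with dotted lines at 2-fold and names for rows beyond them. Higher neighbours lie around Dppa2, Dppa4, Dppa3 and Dppa5a and, 1 each, L1td1 and Tcl1, and none that passed the filter lies around Utf1, Fbxo15 or Tdh.

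Several of the 9 genes share stretches of sequence with other genes, which bears on the placing of short reads. In GENCODE M21 transcripts, 3 genes (Utf1, Fbxo15 and Tcl1) share no stretch of 50 bases with a transcript of another gene on either strand. L1td1 shares 1.44% of its stretches, Tdh 10.2%, Dppa3 16.5%, Dppa2 29.1%, Dppa4 31.3% and Dppa5a 38.6%. Of the 23 other genes involved 14 are in the table and 6 reached 1 FPKM in a genotype, and these are named here after their values were seen. Gm13929, which shares stretches with Tdh, was at 2.19 FPKM in Hb9 control and 28.7 FPKM in A2 SMA MNs (log2 ratio 3.71), close to Tdh itself. Gm14058, which shares stretches with Dppa4, was at 1.51 and 6.39 FPKM (log2 ratio 2.08). For Dppa5a, Gm6083 was at 15.6 and 55.3 FPKM (log2 ratio 1.82) and Gm6798 at 1.61 and 3.63 FPKM (log2 ratio 1.17). The row of Pigp and Gm15310 was lower, at 19.6 and 9.47 FPKM (log2 ratio -1.05). How reads were divided between these genes is not in the table, and the levels of Dppa2, Dppa3, Dppa4, Dppa5a and Tdh are uncertain to that extent. Gm17232, annotated on the strand opposite to Tdh within its span, shares no such stretch with it. It was at 0.0513 and 0.971 FPKM, just under the filter, and without a stated strand setting reads of Tdh and of this transcript cannot be told apart either.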

How the data were processed

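RNA of 3 samples per genotype was sequenced as 50-cycle single-end reads from TruSeq libraries. The authors checked reads with FastQC 0.10.1, trimmed them with CutAdapt, mapped them to NCBI m37 with TopHat (version 2.04) and Ensembl annotation, and used Cufflinks and Cuffdiff. The deposited gene table holds 1 FPKM value per genotype, pooled by the authors, and neither library depths nor the counts behind a value are in it. Its further columns hold the authors' fold change, test statistic, p, q and significance, and were not used.

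The table was handled in Python 3.11.15 with pandas 2.3.3 and numpy 2.4.6, and matplotlib 3.10.9 drew the figures. For a symbol with several rows the one with the highest FPKM was taken. Ratios are log2 of A2 SMA over Hb9 control FPKM without a pseudocount. Lists were counted over genes above 0 FPKM in each genotype whose higher value was 1 FPKM or more, and a gene counted as higher or lower at 2-fold. No test was possible with 1 value per genotype. The procedure was tested on simulated data. Starts are written 1-based.

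The 9 genes and the lists were chosen with earlier results of these data known. Named were the 9 genes, the 4 most abundant genes at most of each list, genes past 2-fold in lists of up to 13, the nearest neighbours and those past 2-fold within 200 kb, and Smn1 and Mnx1. Germline genes were listed as well. One gene of the list of partners is not reported here and was left out of its counts, which hold for the other 12 only. Alternatives were pseudocounts, filters, scalings, other fold limits, summed rows, and leaving out status FAIL.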

Additional observations from a re-analysis of the deposited data

How the results depend on the processing

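The number of the 9 genes at least 2-fold higher in A2 SMA MNs was 9 under each alternative that kept all 9 genes and the 2-fold limit. Both centrings and the upper-quartile scaling raised every ratio, so among these alternatives only the pseudocounts could lower that number. The number was 6 of 6 without status FAIL, 9 at a limit of 1.5-fold, which could not lower it, and 6 at 4-fold. Each of the 9 genes has 1 row with 1 symbol, and all 9 reached 5 FPKM in A2 SMA MNs. The median log2 ratio of 2.44 therefore could not move with no filter, a filter of 5 FPKM, summed rows or rows with 1 symbol. It was 2.39 with a pseudocount of 0.1 FPKM, 2.06 with 1 FPKM, 2.73 centred on the median gene, 2.58 centred on Gusb, Pgk1 and Rpl13a, 2.84 scaled to the upper quartile and 2.14 without status FAIL. Single genes moved by at most 0.55, which was Tdh falling to 2.95 with a pseudocount of 1 FPKM. All 36 values of single genes under 4 alternatives stayed at or above 2-fold. Summed rows left these values as they were and both centrings raised them, so only the pseudocount of 1 FPKM could bring one below 2-fold. Of 88 counts of the gene lists under the same 4 alternatives 11 moved by more than 1.5 times, most of them with centring, and none of the 44 list medians changed sign. Summed rows changed none of these counts or medians.

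No paired analysis was possible because the table holds 1 pooled value per genotype. Leaving out a replicate could not be done for the same reason. The table gives no read counts per gene, so the counting error of the lower values, such as Tdh in Hb9 control MNs, could not be computed.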

Other observations

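Dppa3 is known from primordial germ cells, and 16 germline genes were read in the same way, all of them measured. Of these, 4 were at least 2-fold higher in A2 SMA MNs and none was 2-fold lower, with a median log2 ratio of 0.81, against 2.44 for the 9 genes. Among the background rows 6.83% were higher by this limit. The most abundant were Stra8, a meiotic gene that responds to retinoic acid, at 219 FPKM in Hb9 control and 381 FPKM in A2 SMA MNs (log2 ratio 0.80, status FAIL), Tex19.1 at 61.1 and 121 FPKM (log2 ratio 0.99) and Dazl at 67.6 and 119 FPKM (log2 ratio 0.82). Tfap2c, a factor of early germ cells and trophoblast, was at 11.1 and 68.0 FPKM (log2 ratio 2.61, status FAIL). The other higher genes, named after their values were seen, were Prdm1 (log2 ratio 2.31, status FAIL), Piwil2 (1.55, status FAIL) and Hormad1 (1.47), the first a regulator of germ cell fate and the others genes of the later germline. Relative to the median row 10 of the 16 were at least 2-fold higher, as were 10.4% of the background rows. Stra8 stood above each of the 9 genes in both.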
